A study of Mus musculus with 2 samples.

Results

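The 10 genes examined here belong to the canonical Wnt pathway, read in mouse embryonic stem (ES) cells that expressed Baf53a or Baf53b from a vector. They were the signal carrier Ctnnb1 (beta-catenin), the DNA-binding factors Lef1, Tcf7, Tcf7l1 and Tcf7l2, and the targets Axin2, Sp5, Nkd1, Lgr5 and Cdx1. A gene was included when the RefSeq accession of an array probe mapped to its symbol. All 10 were found, with 15 probes, among 20823 genes named in this way.

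Baf53a (gene Actl6a) is an actin-related subunit of the BAF chromatin remodelling complex of ES and progenitor cells, and Baf53b (gene Actl6b) is its neuronal counterpart. The cells were E14-derived Baf53a cKO ES cells, 1 clone in which CRISPR/Cas9 had mutated both Baf53a alleles and a resistant Baf53a cDNA was switched off by tetracycline (Tet). They were transfected with a pCAGIP-Myc vector for Baf53a or for Baf53b, divided 48 h later and kept in 1 μg/mL Tet for 6 days in DMEM with LIF. The Baf53a-expressing and Baf53b-expressing cells thus share the mutated alleles and the Tet treatment and differ in the vector, with 1 array each. The question was whether the expression profile with Baf53b resembled that with Baf53a.

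Wnt ligands bind Frizzled and Lrp receptors and thereby stop the Axin, Apc and Gsk3 complex from marking beta-catenin for destruction. Beta-catenin then enters the nucleus and joins TCF/LEF factors on DNA, where it switches on targets that include several inhibitors of the pathway itself. In mouse ES cells, Wnt signalling favours self-renewal, and Tcf7l1 acts mainly as a repressor of pluripotency genes that beta-catenin relieves.

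TCF/LEF factors recognise short DNA letters, and 3 promoter windows are shown for what they hold of them. The windows come from RefSeq (GRCm38.p6), run from 250 bases before to 50 bases after a gene start, and were searched on both strands for CTTTGAT and CTTTGTT. Capitals mark a match. Sp5, a zinc-finger factor and direct Wnt target, held 1 match of each kind (chr2:70474673-70474972, plus strand), with CTTTGAT beginning 104 bases before the start and AACAAAG, the opposite-strand form of CTTTGTT, 222 bases before it. Of the windows of Tcf7l2, the one at chr19:55895071-55895370 (plus strand) held CTTTGTT 14 bases before the start. Axin2, a scaffold of the destruction complex and a general readout of Wnt signalling, held neither motif in its window (chr11:108920099-108920398, plus strand).
Sp5: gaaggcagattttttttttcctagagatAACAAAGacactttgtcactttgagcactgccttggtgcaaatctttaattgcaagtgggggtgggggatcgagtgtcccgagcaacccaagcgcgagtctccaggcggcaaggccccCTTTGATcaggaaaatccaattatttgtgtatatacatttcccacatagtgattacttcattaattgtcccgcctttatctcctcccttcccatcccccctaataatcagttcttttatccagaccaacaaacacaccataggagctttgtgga
Tcf7l2: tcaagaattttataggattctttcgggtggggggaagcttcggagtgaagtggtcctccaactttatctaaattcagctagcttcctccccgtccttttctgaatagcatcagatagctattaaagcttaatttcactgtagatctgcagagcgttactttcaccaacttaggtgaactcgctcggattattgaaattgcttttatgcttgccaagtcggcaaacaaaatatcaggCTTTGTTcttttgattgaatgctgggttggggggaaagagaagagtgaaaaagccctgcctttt
Axin2: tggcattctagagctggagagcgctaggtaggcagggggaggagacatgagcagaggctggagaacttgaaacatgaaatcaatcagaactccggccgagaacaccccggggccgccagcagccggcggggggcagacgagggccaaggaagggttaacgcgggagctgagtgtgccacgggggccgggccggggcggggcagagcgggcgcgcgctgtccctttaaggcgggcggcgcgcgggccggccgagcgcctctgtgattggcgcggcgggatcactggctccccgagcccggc
In all, 14 windows belonged to 8 of the 10 genes, and of these 2 held a match, the Sp5 and Tcf7l2 windows printed here. Over all 32851 windows, 9.33% held at least 1 of the motifs, 3.73% CTTTGAT and 5.85% CTTTGTT. A match is a run of letters and does not show binding.

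The arrays used 1 colour and lay on the same slide. A signal is the brightness of a probe after the scanner software's background subtraction, and a difference is Baf53b- minus Baf53a-expressing cells in log2 units after the 75th percentile of each array, at signals of 1161 and 1128, was set equal. With 1 array per condition no difference has a replicate check and no test was run. Each difference was read against 3 measures of spread: the software's modelled error of a spot, the SD of differences between spots of one probe, and the SD of all probes in the same of 5 brightness groups of equal size. The first 2 do not hold the variation between cultures. The SD of all probes holds it together with any effect of the vector, and 1 array per condition cannot separate them. In RNA from whole dishes, fewer cells of a type and less RNA per cell cannot be told apart. As a check of the labels, the Actl6b probe read 3.40 ± 2.33 (modelled error) with Baf53a, where it was not well above background, and 119 ± 12.1 with Baf53b, a bound of 14.5-fold or more. The Actl6a probe read 3806 ± 381 and 3600 ± 360, a difference of -0.04 within its modelled error of 0.204. Only the Actl6b probe therefore told the arrays apart. Neither probe was placed relative to the vectors' coding regions.

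Ctnnb1, the carrier of the signal, was lower with Baf53b, within the modelled error. Its probe lay in the brightest of the 5 groups and read 13653 ± 1365 in Baf53a-expressing cells and 12312 ± 1231 in Baf53b-expressing cells. The difference was -0.11, against a modelled error of 0.204. Its direction was the same in the 10 other ways of processing the arrays, from -0.16 to -0.05. Several of these cannot change the value of a gene with 1 bright probe.

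Among the DNA-binding factors, Tcf7l1, the repressor of the family in ES cells, had the most negative difference. Its probe read 1548 ± 155 with Baf53a and 1360.5 ± 136 with Baf53b, a difference of -0.14 and a ratio of 0.905. This was within the modelled error of 0.204 and just past the SD of 0.124 of all probes in its brightness group. It was the only one of the 14 probes measured on both arrays to pass that SD, which 29.3% of all probes passed. Tcf7l1 was lower with Baf53b in every setting, from -0.20 to -0.12.

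Tcf7, a factor that mostly activates with beta-catenin, had 2 probes. The brighter read 376 ± 37.7 and 346 ± 34.7, a difference of -0.08, and the dimmer 41.2 ± 4.74 and 38.5 ± 4.46, a difference of -0.06. Both probes were lower with Baf53b, by less than their modelled errors of 0.205 and 0.236. Lef1, a factor that is itself a Wnt target in many tissues, read 483 ± 48.4 and 469.8 ± 47.0, a difference of 0.0005. It moved between -0.05 and 0.0008 across settings, and its sign changed with the setting.

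Tcf7l2, known for its role in the gut epithelium and beta cells, had 3 probes, each annotated with a different RefSeq transcript. The brightest read 277 ± 27.8 and 263 ± 26.4, a difference of -0.03. The middle one read 86.6 ± 8.91 and 91.6 ± 9.37, a difference of 0.12, and the dimmest 22.6 ± 3.07 and 22.9 ± 3.01, a difference of 0.06. The probes disagreed in sign and each lay within its modelled error of 0.205, 0.209 and 0.273. Their mean was 0.05, and it ranged from -0.03 to 0.09 across settings. Of the 4 factors, 2 were higher and 2 lower with Baf53b, and their median was -0.03.

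**Figure D1:**
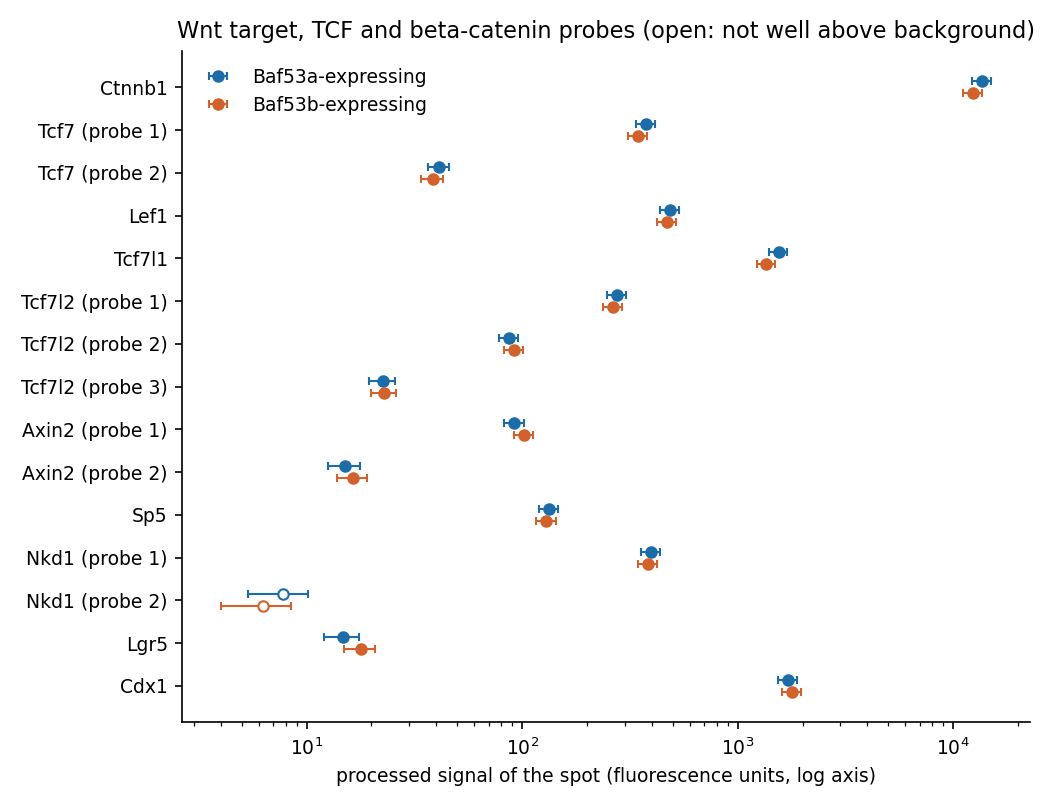
Signal of each of the 15 probes (log axis, arbitrary units) in Baf53a-expressing and Baf53b-expressing cells, with the modelled error of each spot as bars. The probes well above background run from 14.7 for Lgr5 to 13653 for Ctnnb1, the 2 points of a probe lie close together, and the dim Nkd1 probe is drawn open because it was not well above background.

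Among the targets, Lgr5, an R-spondin receptor that marks stem cells of several epithelia, had the largest difference of the 10 genes as reported. Under normexp with an offset of 50 it did not, with Axin2 at 0.23 and Lgr5 at 0.09. That setting started from the median signal, corrected the background in another way and added the offset. The part of each step was not tested. The Lgr5 probe read 14.7 ± 2.75 with Baf53a and 17.8 ± 2.86 with Baf53b, a difference of 0.32 and a ratio of 1.25. The modelled error was 0.355 and the SD of all probes in the dimmest group was 0.324, so the difference did not pass either. It was above 0 in the settings that measured it, from 0.09 to 0.32, and was not measured under the stricter filter. No filter, the weaker flag and the brightest-probe setting could not change the value of its 1 probe.

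Axin2 differed by 0.18 in the mean of its 2 probes, a ratio of 1.13. The brighter read 92.1 ± 9.60 and 102 ± 10.5, a difference of 0.19, and the dimmer 15.1 ± 2.62 and 16.5 ± 2.63, a difference of 0.16. Both probes were higher with Baf53b, and both stayed within their modelled errors of 0.212 and 0.340. Across settings the gene ranged from 0.08 to 0.23.

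Cdx1, a homeobox gene of the posterior embryo, read 1713 ± 171 and 1794 ± 179, a difference of 0.11, and was higher with Baf53b in all settings, from 0.06 to 0.13. The modelled error of 0.204 was larger than the difference.

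Sp5, whose window held both motifs, read 133 ± 13.5 and 129.7 ± 13.2. The scaled difference was 0.0051, and it ran from -0.05 to 0.10 across settings. Nkd1, an intracellular inhibitor that acts on Dishevelled, read 397 ± 39.8 and 382 ± 38.3 on its bright probe, a difference of -0.01. Its other probe read 7.76 ± 2.40 and 6.25 ± 2.25 and was not well above background on either array, so no difference is given for it. Neither Sp5 nor Nkd1 held a sign across settings.

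**Figure D2:**
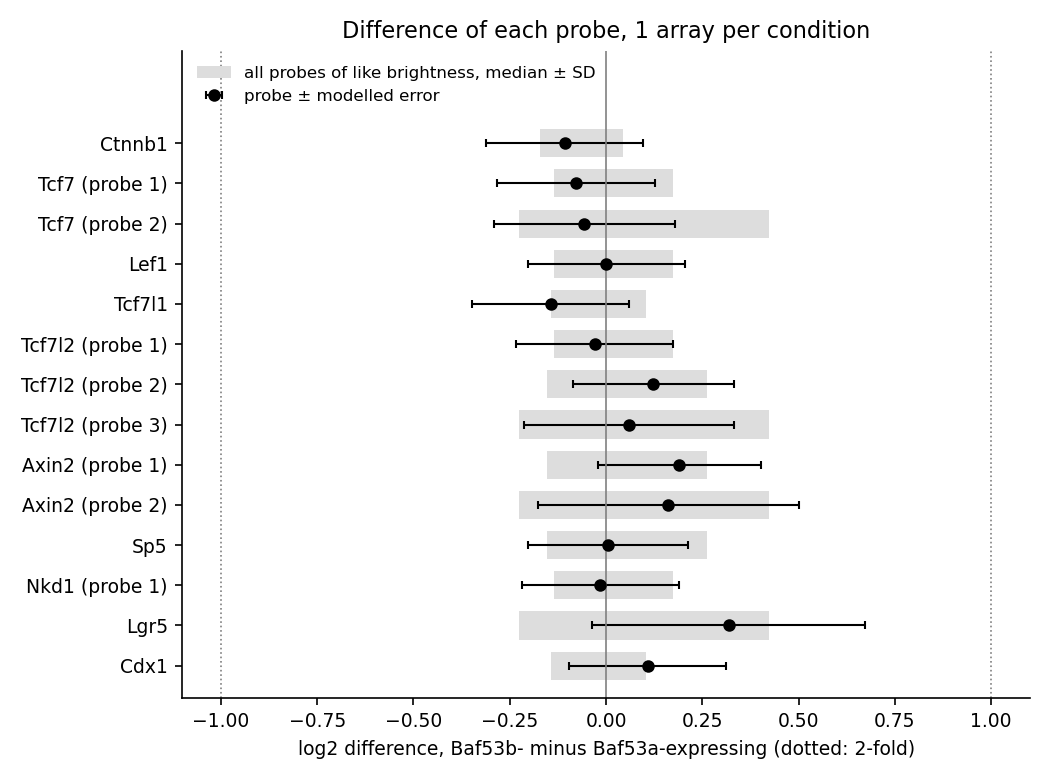
Difference of each probe well above background on both arrays (log2 units, Baf53b- minus Baf53a-expressing cells, 1 array each), with the modelled error as bars and the median ± SD of all probes of the same brightness group as grey bands. Every bar crosses 0, from Lgr5 at 0.32 to Tcf7l1 at -0.14.

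None of the 10 genes reached 2-fold, and neither did most of the array, where 32 of 16608 genes measured (0.193%) were at least 2-fold apart, 0.102% higher and 0.0903% lower with Baf53b. None of their 14 probes did, where 0.253% of all probes measured did. One gene, Lgr5, differed by more than 0.2 and none by more than 0.5, against 19.5% and 2.35% of all genes. Higher with Baf53b were 6 of the 10 genes, where 49.1% of all genes were. The median over the 10 genes was 0.0028, beside -0.0032 over all genes. Across the 5 targets 4 were higher and 1 lower, with a median of 0.11. Of the 14 probes, 8 were higher with Baf53b, where 49.7% of all probes were. None passed its modelled error, which 18.7% of all probes did, and 6 of them passed the SD between spots, which 52.7% of all probes did. These 6 were the probes of Lgr5, Cdx1, Ctnnb1 and Tcf7l1, the brighter probe of Axin2 and the middle probe of Tcf7l2.

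The differences followed brightness over the whole array. From the dimmest to the brightest of the 5 groups, the median difference of all probes was 0.0976, 0.0544, 0.0192, -0.0193 and -0.0632, and the 14 probes lay in these groups as 4, 3, 4, 2 and 1. Of them, 3, 3, 1, 1 and 0 were higher with Baf53b. After the median of its group was subtracted, Lgr5 stood at 0.221, the Axin2 probes at 0.135 and 0.0644, Cdx1 at 0.127, Ctnnb1 at -0.0441 and Tcf7l1 at -0.125. The median of the factors then was -0.0718 and that of the targets 0.0998. The part of brightness in the gap between targets and factors was not tested beyond these values.

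**Figure D3:**
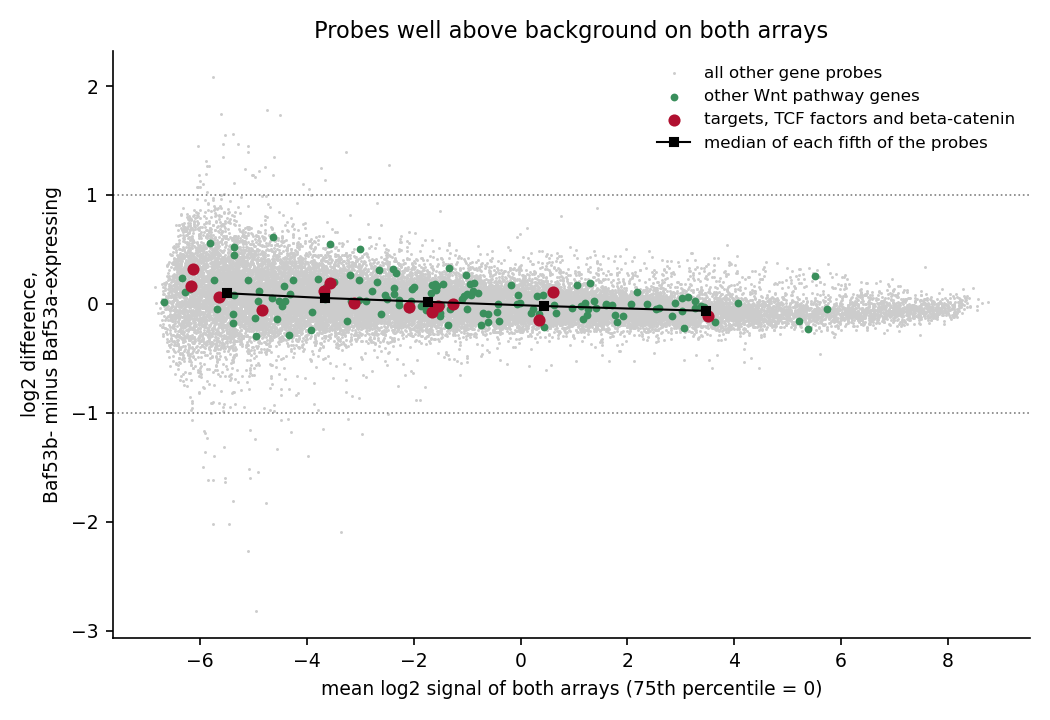
Difference of all 29247 probes well above background on both arrays against their mean level (log2 units), with the median of each brightness group (black), the probes of the 10 genes (red) and those of other Wnt genes (green). The cloud narrows and its median drifts from 0.0976 to -0.0632 from dim to bright, and the red points lie inside it.

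Directions depended on the processing for 4 of the 10 genes. Axin2, Lgr5 and Cdx1 were higher with Baf53b, and Tcf7, Tcf7l1 and Ctnnb1 lower, in every setting that measured them. Lef1, Tcf7l2 and Sp5 changed sign with the scaling. Lef1 also did so under normexp background correction, and Tcf7l2 under the stricter filter and the brightest-probe setting. Nkd1 changed sign under normexp only. The largest difference of any of the 10 genes in any setting was 0.32.

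**Figure D4:**
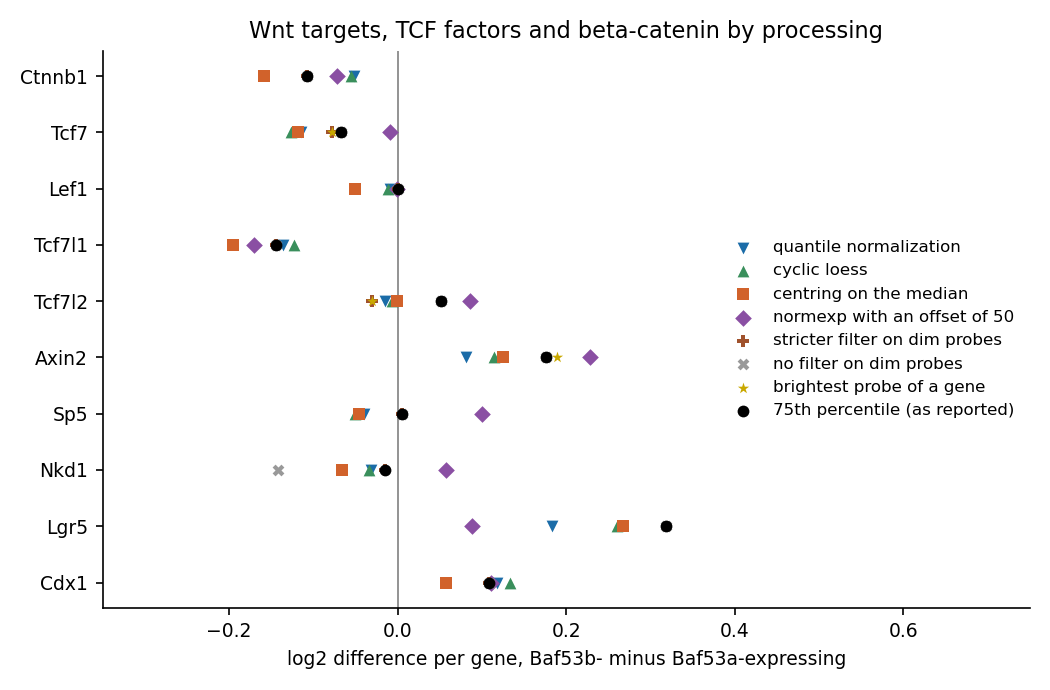
Difference of each of the 10 genes (log2 units, Baf53b- minus Baf53a-expressing cells) under the reported processing (black) and 7 of the 10 other settings, each with its own marker, where markers at the same value hide each other. Points of Axin2, Lgr5 and Cdx1 stay above 0, points of Tcf7, Tcf7l1 and Ctnnb1 stay below it, and those of Lef1, Tcf7l2, Sp5 and Nkd1 fall on both sides.

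The rest of the pathway was read from lists by role, with 122 genes on the array, of which 112 were measured in both cell populations. None was 2-fold apart on a gene's mean, 64 were higher and 48 lower, and the median was 0.03. Differences past 0.5 belonged to 4 genes, 3.57% of those measured beside 2.35% of all genes: Fzd8, a Wnt receptor, Jup (plakoglobin), the junction relative of beta-catenin, Pygo1, a nuclear cofactor of it, and Wif1, a secreted inhibitor. Fzd8 read 37.7 and 56.2 (0.62), Jup 81.2 and 115 (0.55), Pygo1 23.5 and 32.8 (0.52) and Wif1 121 and 168 (0.51). All 4 lay in the 2 dimmest brightness groups, where the SD of all probes was 0.324 and 0.208. Of 139 probes, 16 were higher and 6 lower past their modelled error, where 12.6% and 6.06% of all probes were.

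Upstream of the 10 genes, 21 of 25 ligands and secretion factors were measured, 13 higher and 8 lower with Baf53b, from Wnt10b (-0.28) to Wnt7b (0.28). Their median of 0.08 turned to -0.03 under quantile normalization. The 16 receptors measured split 7 higher and 9 lower, from Fzd3 (-0.17) to Fzd8. Extracellular inhibitors and receptor turnover genes split 12 higher and 4 lower of 16, with a median of 0.11 that was 0.01 under the stricter filter on dim probes, from Znrf3 (-0.15), a ligase that removes receptors, to Wif1. Sostdc1, a secreted antagonist, had 1 probe well above background with Baf53b only, at 8.58 ± 2.29 and 20.7 ± 2.90. The ratio after scaling was 2.48, taken from a Baf53a reading that was not well above background. A second probe of Sostdc1 stood at 0.02.

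In the cytoplasm, where beta-catenin is degraded, 8 of 17 genes were higher and 9 lower, from Dvl3 (-0.22), a Dishevelled protein, to Btrc (0.12), which marks beta-catenin for the proteasome. The 15 nuclear cofactors measured split 9 and 6, from Tle5 (-0.19) to Pygo1. Among 13 other Wnt targets 7 were higher and 6 lower, from Sp8 (-0.19) to Cdx2 (0.18), with a median of 0.0092. The 6 genes that Tcf7l1 represses in ES cells split 3 and 3, from Esrrb (-0.15) to Nr0b1 (0.07). The 8 junction partners of beta-catenin split 5 and 3, from Ctnna1 (-0.05) to Jup, with a median of 0.16 that was 0.03 under the same stricter filter.

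**Figure D5:**
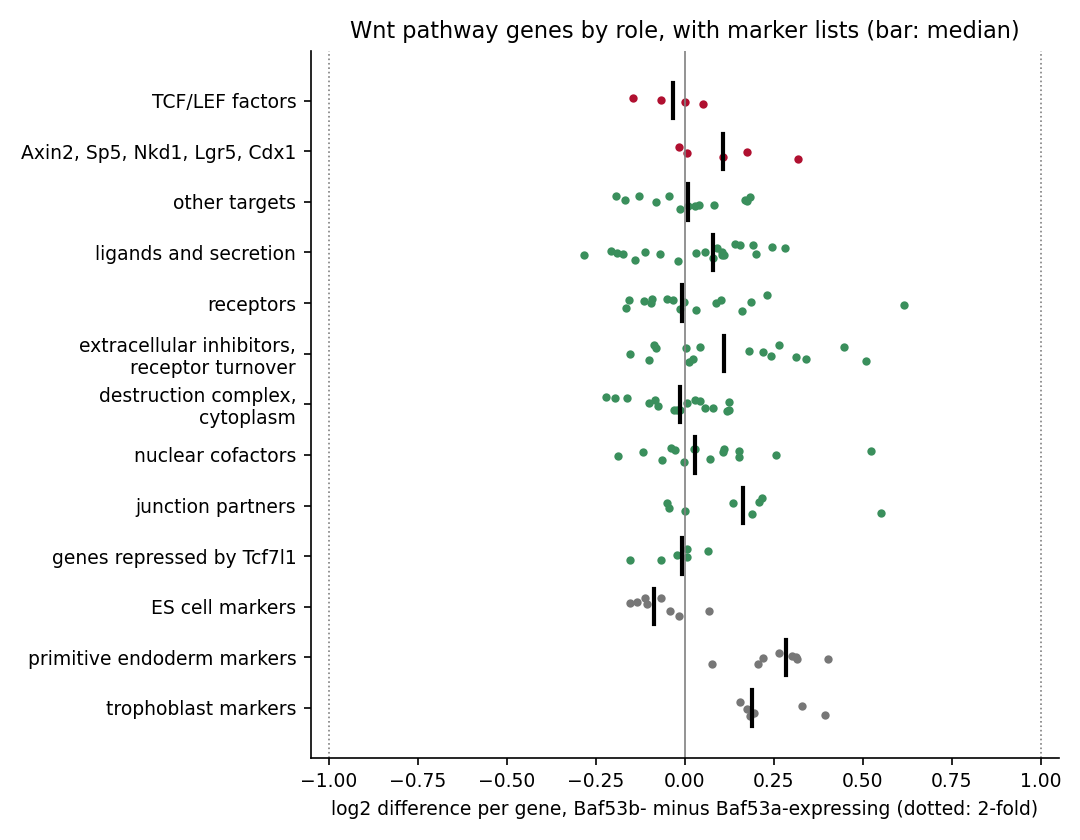
Difference of each gene measured (log2 units, Baf53b- minus Baf53a-expressing cells) in each role list of the Wnt pathway and in 3 marker lists (grey), with the list's median as a bar and 2-fold as dotted lines. The Wnt lists overlap around 0, with Fzd8, Jup, Pygo1 and Wif1 as the points past 0.5.

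Marker lists of ES cells and of other cell types were read beside these genes. All 8 ES cell markers were measured, 1 higher and 7 lower with Baf53b, where 49.1% of all genes were higher. Their median was -0.09. The brightest group of probes, which holds those of Zfp42, Esrrb and Pou5f1, had a median of -0.0632 over the whole array. The summed signal of the ES cell markers, in units of the 75th percentile, was 166 against 154. Zfp42 held the most of it, and without Zfp42 it was 83.0 against 76.7. Over all named genes measured, the sum was 70180 against 67882. All 8 primitive endoderm markers were higher, by 0.08 to 0.40, with sums of 20.9 and 25.7, of which Lama1 held the most, and 1.97 and 2.34 without it. All 6 trophoblast markers measured were higher, by 0.15 to 0.39, with sums of 5.24 and 6.05, while Elf5 was not well above background on either array. After the median of each probe's brightness group was subtracted, the list medians were -0.05 for ES cells, 0.26 for primitive endoderm and 0.20 for trophoblast. Past their modelled error were 1 of 13 ES cell probes, 8 of 10 primitive endoderm probes and 2 of 6 trophoblast probes. Of all probes, 18.7% were. Cdx2 and Ascl2 are on the trophoblast list and on that of the other Wnt targets. The part of these markers in the values of Axin2, Lgr5 and Cdx1 was not tested.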

How the data were processed

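RNA of 1 sample per condition was labelled with Cy3 and hybridised to Agilent mouse arrays. Feature Extraction 11.0.1.1 was run on the scans, and per spot an intensity after background subtraction, its modelled error and flags were deposited, on a design annotated on mm9. Flags and other codes were deposited in the same files. The authors also deposited a table of 30488 probes, each value a ratio to 1 number per array.

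From the intensities, outlier spots were left out, log2 signals of 39429 gene probes were averaged over spots, and each array's 75th percentile was set to 0. A probe was measured when at least 50% of its spots were flagged well above background, which held on both arrays for 29247 of 39411 usable probes, and a gene's value is the mean over such probes. The lowest such signal, 8.45 and 9.75, limits what can be seen, and the number of arrays limits the precision. RefSeq tables (GRCm38.p6) gave names and promoter windows. The 10 genes, the lists and the rule for named genes (all 10, each list's extremes, and any gene or bound past 2-fold) were chosen with earlier results of these data known. Alternatives were quantile normalization, cyclic loess, centring on the median and normexp on the median signal with an offset of 50. Others were stricter, weaker and no filters on dim probes, outlier spots kept, the brightest probe of a gene and the value table. Python 3.11.15 with numpy 2.4.6 and pandas 2.3.3 and R 4.3.3 with limma 3.58.1 were used. Tested on simulated data with 200 changed probes among 29247, the steps recovered 200. The planted changes were all well past 2-fold and the noise was the same at every brightness. The simulation therefore does not show whether differences as small as those of the 10 genes would be found.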

Additional observations from a re-analysis of the deposited data

How the results depend on the processing

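Each of 10 other settings kept every direction of Axin2, Lgr5, Cdx1, Tcf7, Tcf7l1 and Ctnnb1 that it measured. Cdx1, Tcf7l1 and Ctnnb1 have 1 bright probe each, so the filters, the weaker flag and the brightest-probe setting could not change their values. No filter, the weaker flag and the brightest-probe setting could not change Lgr5, which has 1 probe. The first 2 of these could not change Axin2 or Tcf7, whose 2 probes each were already measured. The count of the 10 genes higher with Baf53b, 6 as reported, was 3 under quantile normalization, cyclic loess and centring on the median (Axin2, Lgr5 and Cdx1 each time), and 3 of 8 measured under the stricter filter on dim probes, which removed Axin2 and Lgr5. Nkd1 stood at -0.14 with no filter and with the weaker detection flag, where its dim probe enters. Other Wnt genes at least 2-fold apart numbered 2 in both of these settings, against 0. Probes at least 2-fold apart, 74 as reported, numbered 2 under normexp, which changed the signal, the background correction and the offset together. They numbered 1337 with no filter, 2 with the stricter filter and 754 with the weaker flag. The share of all genes higher moved from 49.1% to 35.6% under centring on the median and 58.1% under normexp. The median over the 10 genes ran from -0.05 to 0.07. No paired analysis was possible because each condition has 1 array, and for the same reason no array could be left out. Signal over background limits Lgr5 and the dim probes of Axin2, Tcf7l2 and Nkd1 most.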

Other observations

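Further marker lists were read on the same arrays. Of the primitive streak and mesoderm markers, 6 of 7 were measured, 2 higher and 4 lower with Baf53b, with a median of -0.07, and 2 of the 7, T and Mixl1, are also on the list of other Wnt targets. Neural ectoderm markers were measured for 5 of 6 genes, 3 higher and 2 lower, with a median of 0.02, and fibroblast markers for 4 of 5, 2 higher and 2 lower, with a median of 0.0037. T, the early mesoderm factor, differed by -0.13. Wnt2, Wnt2b, Wnt3a and Rspo2, ligands and an agonist of the pathway, were not well above background on either array.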
